A study of Dendrobium catenatum with 16 samples.

Results

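Transcripts were compared between Dendrobium catenatum plantlets kept on NAA plus 6-BA and plantlets kept on NAA alone, so that 6-BA was the only difference. The comparison was chosen by its labels and takes in 4 of the 16 libraries of the series and every gene of the count table. The plants of this first experiment were 2 months old, had germinated on MS medium of reduced strength with sucrose, agar and potato, and were then moved for 3 weeks to the same medium carrying both hormones (NAA 0.1 mg/L, 6-BA 1.0 mg/L), NAA only or 6-BA only at those doses, or distilled water. Each of these 4 groups had 2 libraries of poly(A) RNA, made from pooled aerial parts (young leaves, stems and shoots). A second experiment held 8 single libraries of plants 9 months old, given 6-BA at 0, 0.5, 1.0 or 2.0 mg/L for 2 or 4 weeks without NAA.

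Both hormones were synthetic, the auxin NAA (naphthaleneacetic acid) and the cytokinin 6-BA (benzyladenine). Cytokinins are sensed by histidine kinases, which pass phosphate to nuclear response regulators. In Arabidopsis and rice, the type-B regulators activate genes, while the type-A regulators are themselves induced and dampen the signal. Cytokinin dehydrogenases break natural cytokinins down, isopentenyltransferases make them, and glucosyltransferases store them in an inactive form. Whether these enzymes act on the applied 6-BA was not tested. In tissue culture the balance between auxin and cytokinin is used to steer shoot and root formation.

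The labels name the 2 libraries of a group biological replicates and do not say whether they came from separate vessels or harvests, so p-values measure only the spread between these samples. Total counts were 74.5 and 57.8 with NAA plus 6-BA, against 37.2 and 34.3 with NAA, in units of 1e6, and the counts of the other 4 libraries of the first experiment lay between 39.4 and 54.3 in the same units. Transcripts of the leafy tissue were abundant in each group. The 54 light-harvesting and photosystem genes summed to 52599.9 and 54180.4 CPM (counts scaled to a library of 1e6, for these sums by library totals and elsewhere after TMM scaling) with NAA plus 6-BA, against 47053 and 55794 CPM with NAA. A list of 19 root markers, for a tissue the labels do not list, summed to 1095 and 1129 CPM with NAA plus 6-BA and to 1099 and 1079 CPM with NAA, with no marker at 0 in all 8 libraries. The 28 floral markers, of which 5 were at 0 in all 8 libraries, summed to 726 and 796 CPM with NAA plus 6-BA and to 854 and 782 CPM with NAA.

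In all, 1083 of 19420 tested genes (5.58%) passed an adjusted p of 0.05 in edgeR's quasi-likelihood test, adjusted over all tested genes by the Benjamini-Hochberg method. Of these, 376 were higher with NAA plus 6-BA (1.94% of the tested genes) and 707 were lower (3.64%). Large changes lay mostly on the lower side, with 114 genes lower and 20 higher by at least 2 on the log2 scale. All log2 fold changes are NAA plus 6-BA over NAA, and their median over the tested genes was 0.00. Calls of this comparison were also computed with 1 library left out at a time. Values without either library of a group are those without replicate 1 and those without replicate 2. The same was done for the difference between 6-BA effects with and without NAA, and for the contrast with 6-BA alone. Results of 6-BA alone against water, and shares of genes common to both effects, are given from all libraries only. The count of genes was 387 without NAA plus 6-BA replicate 1, 617 without NAA plus 6-BA replicate 2 and 581 without NAA replicate 1. With libraries scaled by their totals only, the split was 527 higher and 624 lower. In bulk samples, fewer cells of a type and less RNA per cell cannot be told apart.

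**Figure D1:**
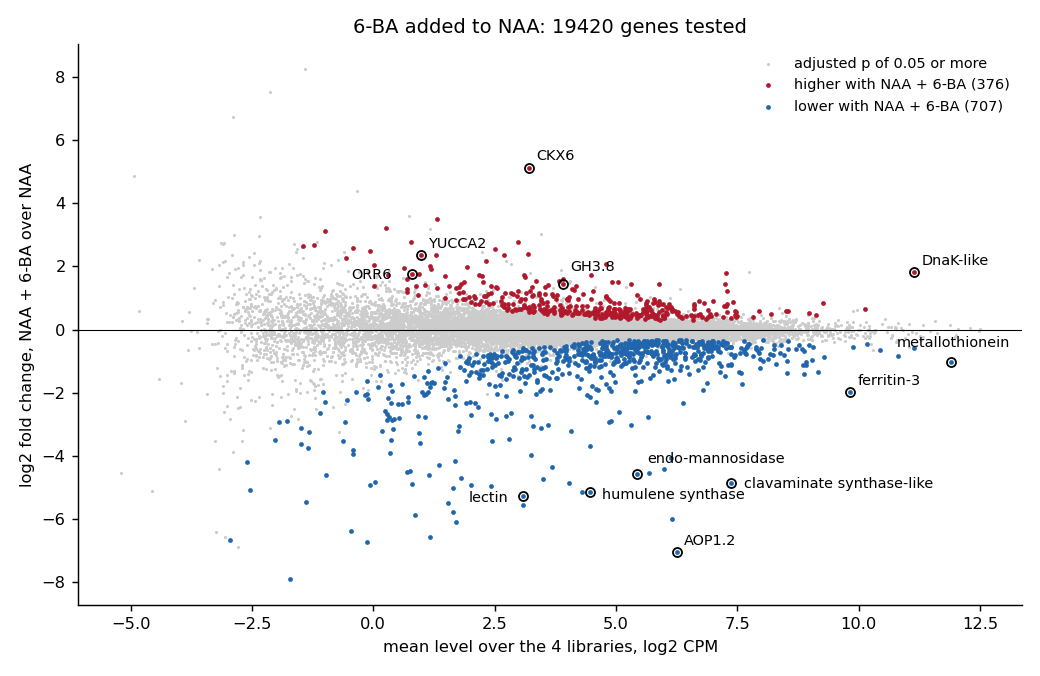
Each point is 1 of 19420 tested genes, with its mean level over the 4 compared libraries (log2 CPM) on the horizontal axis and its log2 fold change, NAA plus 6-BA over NAA, on the vertical axis. Red points mark the 376 genes higher with NAA plus 6-BA, blue points the 707 genes lower with it, and grey points the others; the blue points reach further from 0 than the red ones.

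The cytokinin breakdown genes held the largest rise among called genes with a description, a mean log2 CPM of at least 1 and groups that did not overlap. Of 7 tested cytokinin dehydrogenases, 4 rose, 1 fell and 2 did not pass, with a median log2 fold change of 1.07, and the counts were the same without any of the 8 libraries. Cytokinin dehydrogenase 6 (LOC110105324) had 16.4 and 19.7 CPM with NAA plus 6-BA, against 0.63 and 0.387 CPM with NAA. These values rest on 1247 and 1143 counts with NAA plus 6-BA and on 23 and 13 counts with NAA, and gave a rise of 5.13 (SE 0.27, edgeR adjusted p = 2.96e-05). No overlap was seen between the groups for this gene or for any other gene described below as risen or fallen, while 46.9% of all tested genes had groups that did not overlap (23.2% higher and 23.7% lower).

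The other 3 dehydrogenases that rose moved the same way by smaller amounts. Cytokinin dehydrogenase 4-like (LOC110102256) had 34.9 and 34.2 CPM with NAA plus 6-BA, against 10.8 and 10.1 CPM with NAA, a rise of 1.73 (SE 0.17, edgeR adjusted p = 0.000615). It overlaps a gene on the opposite strand, and the use of strand in counting was not given in the sources used here. Cytokinin dehydrogenase 5 (LOC110095507) had 6.01 and 7.96 CPM with NAA plus 6-BA, against 1.94 and 2.29 CPM with NAA, a rise of 1.72 (SE 0.20, edgeR adjusted p = 0.00133). Cytokinin dehydrogenase 3 (LOC110106158), at 10.6 and 10.4 CPM with NAA plus 6-BA, against 5.18 and 4.86 CPM with NAA, rose by 1.07 (SE 0.16, edgeR adjusted p = 0.00422). The member that fell was cytokinin dehydrogenase 11 (LOC110094204), which had 183 and 219 CPM with NAA plus 6-BA, against 419.8 and 428 CPM with NAA (a log2 fold change of -1.08, SE 0.11, edgeR adjusted p = 0.000566). This member held most of the counts of the family, and the 7 genes together summed to 254 and 292 CPM with NAA plus 6-BA, against 440 and 446 CPM with NAA. The family total was thus lower while 4 of its members were higher.

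Response regulators were next in the cytokinin pathway, and most of those called were higher. Of 18 tested members, 6 rose, 1 fell and 11 did not pass (median 0.41). The 5 members whose call held without any one library all carry the names of rice type-A regulators. One copy named ORR9 (LOC110097157) had 13.5 and 15.5 CPM with NAA plus 6-BA, against 6.49 and 7.21 CPM with NAA, a rise of 1.08 (SE 0.14, edgeR adjusted p = 0.00196). Another ORR9 copy (LOC110101124) had 37.2 and 38 CPM with NAA plus 6-BA, against 16.9 and 21.6 CPM with NAA, a rise of 0.96 (SE 0.12, edgeR adjusted p = 0.00163). The remaining such members were ORR9-like LOC110095946 (0.86), ORR1 (LOC110108192, 0.78) and ORR9 LOC110109713 (0.77), each with both NAA plus 6-BA libraries above both NAA libraries. ORR6-like (LOC110108467) had 2.22 and 3.19 CPM with NAA plus 6-BA, against 0.52 and 1.07 CPM with NAA, and its rise of 1.77 (SE 0.36, edgeR adjusted p = 0.0228) did not pass without NAA replicate 1 (1.34) and without either NAA plus 6-BA library (2.01 and 1.49). A further ORR9 copy went the other way. LOC110104061 had 16 and 15.3 CPM with NAA plus 6-BA, against 26.6 and 31.9 CPM with NAA (log2 fold change -0.90, SE 0.16, edgeR adjusted p = 0.00998), and that call did not hold without either NAA plus 6-BA library (-0.93 and -0.87). Several of these genes bear the same name, and the handling of reads shared between near-identical copies was not given in the sources used here.

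Called members of the list for cytokinin synthesis, perception and other turnover were mostly lower. The list was drawn from words in the gene descriptions, and whether histidine kinase 1 in it senses cytokinin was not tested. In that list 1 of 49 tested members rose and 4 fell (median 0.02), so that 10.2% passed, against 5.58% of all tested genes. The lower count was 1 without either NAA plus 6-BA library, and 2 without NAA replicate 1. The higher count was 0 without NAA plus 6-BA replicate 1, and 2 without NAA replicate 2. A putative cis-zeatin O-glucosyltransferase (LOC110105074), of an enzyme group that stores cytokinin as a glucoside, had 0.736 and 0.845 CPM with NAA plus 6-BA, against 3.26 and 3.37 CPM with NAA (log2 fold change -2.07, SE 0.29, edgeR adjusted p = 0.003). An adenylate isopentenyltransferase-like gene (LOC110116586), the entry to cytokinin synthesis, had 0.933 and 0.69 CPM with NAA plus 6-BA, against 3.18 and 3.22 CPM with NAA (log2 fold change -1.97, SE 0.36, edgeR adjusted p = 0.0118), a call lost without either NAA plus 6-BA library (-2.21 and -1.77). A cytokinin riboside 5'-monophosphate phosphoribohydrolase (LOC110112038), which releases the active hormone, had 1.59 and 1.45 CPM with NAA plus 6-BA, against 3.53 and 3.58 CPM with NAA (log2 fold change -1.22, SE 0.25, edgeR adjusted p = 0.0224), a call lost without either NAA library (-1.22 and -1.22) and without either NAA plus 6-BA library (-1.29 and -1.16). Histidine kinase 1 (LOC110114670), which overlaps a gene on the opposite strand, fell by 1.27 (SE 0.26, edgeR adjusted p = 0.0208), a call lost without NAA replicate 1 (-1.15) and without either NAA plus 6-BA library (-1.13 and -1.43). Probable histidine kinase 6 (LOC110115712), named after a cytokinin receptor of rice, had 83.5 and 73.1 CPM with NAA plus 6-BA, against 54.7 and 55.3 CPM with NAA and rose by 0.51 (SE 0.09, edgeR adjusted p = 0.00814), and that call was lost without NAA plus 6-BA replicate 1 (0.41). Of the called genes that inactivate natural cytokinins, the dehydrogenases were thus mostly higher and the glucosyltransferase lower.

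**Figure D2:**
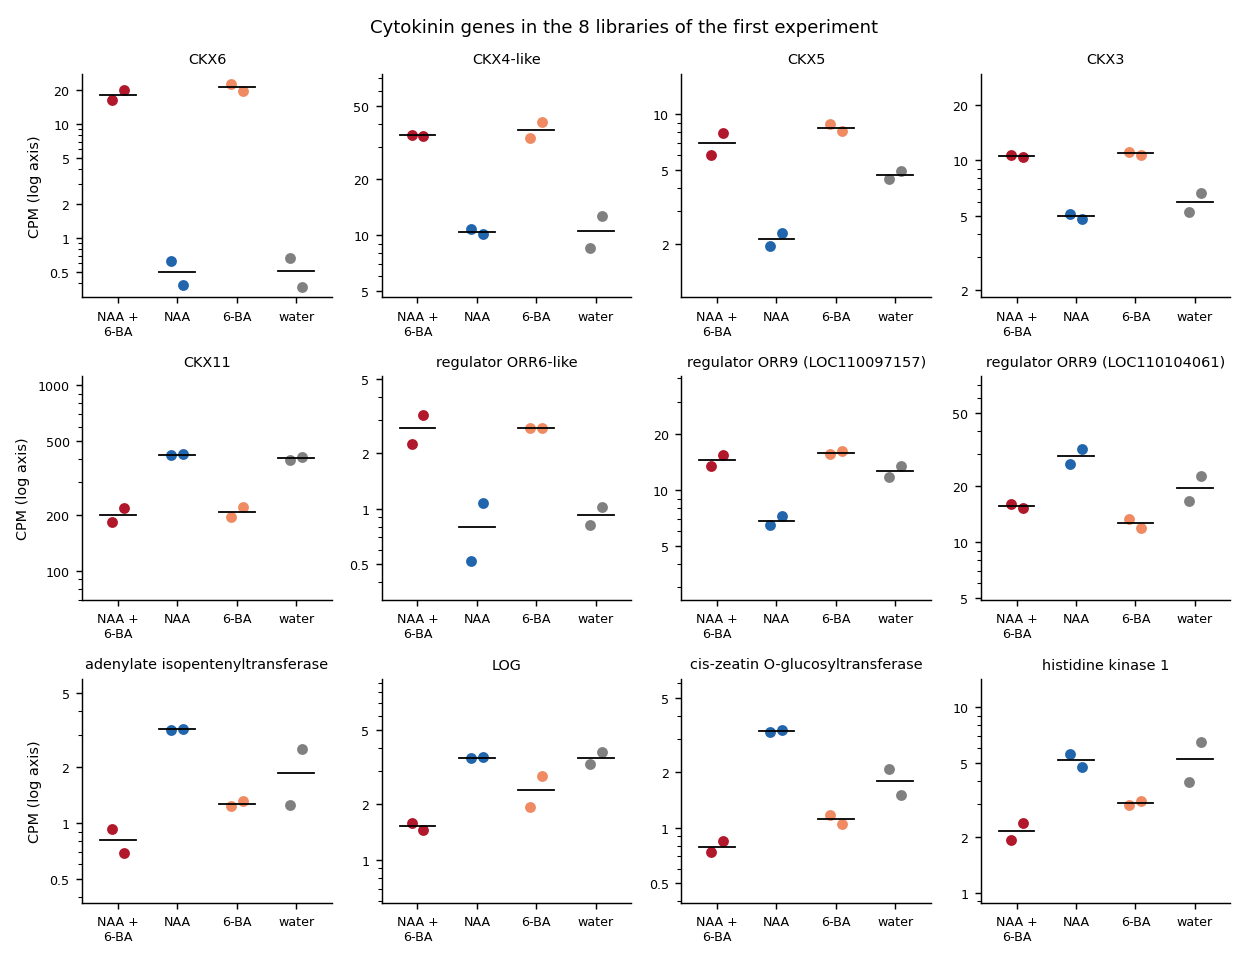
Levels of 12 cytokinin genes (CPM, log axis) in the 8 libraries of the first experiment; points are libraries, horizontal bars the means of the 2 libraries, and CKX stands for cytokinin dehydrogenase and LOG for the phosphoribohydrolase. CKX6 lies at 16.4 and 19.7 CPM with NAA plus 6-BA, against 0.630 and 0.387 CPM with NAA, while CKX11 lies lower with NAA plus 6-BA than with NAA.

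Auxin genes were compared because the plants of both groups received the same dose of NAA. In the auxin response list 9 of 72 tested members rose, 0 fell and 63 did not pass (median 0.23, 12.5% called, against 5.58% of all tested genes). The count was 3 without NAA plus 6-BA replicate 2, and 4 without NAA replicate 1 and without NAA plus 6-BA replicate 1. GH3.8 (LOC110103533), of the enzymes that join auxin to amino acids, had 20.7 and 23.3 CPM with NAA plus 6-BA, against 8.3 and 7.66 CPM with NAA, a rise of 1.46 (SE 0.24, edgeR adjusted p = 0.00749). Auxin response factor 2A-like (LOC110100115), a transcription factor, had 91.2 and 82.9 CPM with NAA plus 6-BA, against 58.2 and 54 CPM with NAA and rose by 0.63 (SE 0.09, edgeR adjusted p = 0.0025). Auxin response factor 5 (LOC110101753), which in Arabidopsis sets up vascular and floral primordia, rose by 0.58 (SE 0.12, edgeR adjusted p = 0.0188), but not without NAA replicate 1 (0.43) and without either NAA plus 6-BA library (0.53 and 0.63). Transport and synthesis genes split evenly, with 4 of 65 higher and 4 lower (median 0.15). YUCCA2-like (LOC110108948), of the enzymes that complete auxin synthesis, had 2.6 and 4.05 CPM with NAA plus 6-BA, against 0.63 and 0.656 CPM with NAA, a rise of 2.36 (SE 0.37, edgeR adjusted p = 0.00606). PIN-LIKES 7-like (LOC110093891), an intracellular auxin carrier, had 21.4 and 20.9 CPM with NAA plus 6-BA, against 10.9 and 10.6 CPM with NAA and rose by 0.98 (SE 0.11, edgeR adjusted p = 0.00111). The lower members named here were WAT1-related transporters, of which LOC110106441 had 124 and 120.3 CPM with NAA plus 6-BA, against 227 and 194 CPM with NAA (log2 fold change -0.79, SE 0.09, edgeR adjusted p = 0.0014). The counts of the transport list were 2 without either 6-BA library and without NAA plus 6-BA replicate 2 for higher members and 1 without NAA plus 6-BA replicate 1 for lower ones.

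Of 8 tested genes annotated as the auxin oxidase DAO, a count made after the values were seen, 7 fell, 0 rose and 1 did not pass (median -2.97). All 8 also belong to the list of AOP and other dioxygenases described below. The lower count was 4 without NAA replicate 1 and without either NAA plus 6-BA library. Rice DAO is a 2-oxoglutarate-dependent dioxygenase that oxidizes the natural auxin indole-3-acetic acid. DAO-like LOC110105848 had 7.31 and 6.65 CPM with NAA plus 6-BA, against 57.8 and 46.8 CPM with NAA, and fell by 2.90 (SE 0.13, edgeR adjusted p = 9.38e-06). DAO LOC110115800 had 0.815 and 0.638 CPM with NAA plus 6-BA, against 6.98 and 5.1 CPM with NAA, and fell by 3.04 (SE 0.26, edgeR adjusted p = 0.000328). In both genes each NAA plus 6-BA library was several-fold below each NAA library.

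In the gibberellin list 2 of 33 tested members were higher and 7 lower (median -0.08), so that 27.3% passed, against 5.58% of all tested genes. Called genes as a whole were also more often lower, with 707 lower and 376 higher. Leaving out single libraries gave 2 without NAA replicate 1 and without NAA plus 6-BA replicate 1, and 4 without NAA plus 6-BA replicate 2 for the lower count and 0 without NAA replicate 1 and without NAA plus 6-BA replicate 2, and 1 without 6-BA replicate 1 and without NAA plus 6-BA replicate 1 for the higher one. The list includes enzymes that inactivate the hormone (gibberellin 2-beta-dioxygenases), an activating enzyme, its receptor and a DELLA repressor. Gibberellin 2-beta-dioxygenase 8-like (LOC110108465) had 7.43 and 8.84 CPM with NAA plus 6-BA, against 40.1 and 31.7 CPM with NAA, and fell by 2.15 (SE 0.26, edgeR adjusted p = 0.00163). Gibberellin 2-beta-dioxygenase 2 (LOC110113126) had 1.09 and 0.965 CPM with NAA plus 6-BA, against 4.22 and 5.27 CPM with NAA, and fell by 2.2 (SE 0.30, edgeR adjusted p = 0.00266). The activating gibberellin 3-beta-dioxygenase 1 (LOC110096318) fell by 0.99 (SE 0.20, edgeR adjusted p = 0.02), a call lost without NAA replicate 1 (-0.79) and without either NAA plus 6-BA library (-1.03 and -0.94). Receptor GID1C (LOC110106011) fell by 0.54 (SE 0.09, edgeR adjusted p = 0.00857), a call lost without NAA replicate 1 (-0.47) and without NAA plus 6-BA replicate 1 (-0.45). Gibberellin 2-beta-dioxygenase 1 (LOC110103098) went the other way, with a rise of 0.69 (SE 0.14, edgeR adjusted p = 0.0193) that was lost without NAA replicate 1 (0.55) and without NAA plus 6-BA replicate 2 (0.51).

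Abscisic acid genes moved in both directions, with 2 of 22 higher and 2 lower (median 0.12, 18.2% called). The ethylene list had 5.88% called and the jasmonate and lipoxygenase list 5.13%, near the 5.58% of all tested genes. A 9-cis-epoxycarotenoid dioxygenase (LOC110097303), which commits carotenoids to abscisic acid synthesis, had 14.2 and 12.2 CPM with NAA plus 6-BA, against 2.85 and 5.13 CPM with NAA, a rise of 1.73 (SE 0.24, edgeR adjusted p = 0.00281). Of the enzymes that break abscisic acid down, abscisic acid 8'-hydroxylase 3 (LOC110112069) had 15.3 and 17.9 CPM with NAA plus 6-BA, against 5.56 and 7.6 CPM with NAA and rose by 1.34 (SE 0.17, edgeR adjusted p = 0.00179). The CYP707A2-like gene LOC110113154 had 278 and 307 CPM with NAA plus 6-BA, against 696 and 577 CPM with NAA and fell by 1.12 (SE 0.13, edgeR adjusted p = 0.00106). A PYR1-like receptor gene (LOC110093168) fell by 1.03 (SE 0.13, edgeR adjusted p = 0.00198). Among strigolactone and brassinosteroid genes 1 of 13 passed. It was carotenoid cleavage dioxygenase 8 homolog B (LOC110092372), an enzyme of strigolactone synthesis, with 19.9 and 29.3 CPM with NAA plus 6-BA, against 9.01 and 11.8 CPM with NAA and a rise of 1.24 (SE 0.19, edgeR adjusted p = 0.00513). The ethylene list had 1 of 17 members higher (0 without NAA plus 6-BA replicate 2) and the jasmonate and lipoxygenase list 2 of 39 lower (1 without NAA plus 6-BA replicate 1, and 4 without NAA replicate 2).

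The deepest falls were spread over several enzyme and transporter families. The 10 largest falls among genes of moderate or high level were 3 genes named AOP1 or AOP1.2, a lectin, alpha-humulene synthase, a clavaminate synthase-like gene, an ABC transporter, cucumisin-like, a mannosidase and a BURP domain gene, and each of these calls held without any one library. In the list of AOP and other 2-oxoglutarate-dependent dioxygenases, 14 of 26 tested members fell and 0 rose (median -1.40). The lower count was 9 without NAA replicate 1 and without NAA plus 6-BA replicate 2. Members of this enzyme class oxidize many small molecules, and AOP genes are known from glucosinolate synthesis in Arabidopsis. AOP1.2 (LOC110110694) had 1.26 and 1 CPM with NAA plus 6-BA, against 188 and 115 CPM with NAA (log2 fold change -7.05, SE 0.49, edgeR adjusted p = 0.00011). LOC110110821 had 2.06 and 2.36 CPM with NAA plus 6-BA, against 171 and 107 CPM with NAA (log2 fold change -5.98, SE 0.45, edgeR adjusted p = 0.000185). LOC110110825 had 1.63 and 0.448 CPM with NAA plus 6-BA, against 50 and 26.2 CPM with NAA (log2 fold change -5.14, SE 0.47, edgeR adjusted p = 0.0004). These copies are close to each other in name and, for LOC110110821 and LOC110110825, in position, so single values are uncertain.

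Other genes among the deepest falls differ in function. Clavaminate synthase-like LOC110112065 had 11.2 and 10.8 CPM with NAA plus 6-BA, against 401 and 237 CPM with NAA, and fell by 4.86 (SE 0.27, edgeR adjusted p = 3.84e-05). Alpha-humulene synthase (LOC110093810), of the enzymes that make sesquiterpenes, had 1.45 and 0.948 CPM with NAA plus 6-BA, against 57.2 and 28.4 CPM with NAA, and fell by 5.14 (SE 0.36, edgeR adjusted p = 0.000126). ABC transporter G family member 38-like (LOC110101822) had 1.46 and 0.707 CPM with NAA plus 6-BA, against 41.3 and 22.2 CPM with NAA, and fell by 4.84 (SE 0.46, edgeR adjusted p = 0.000475). Cucumisin-like (LOC110115744), a serine protease of the subtilase family, fell by 4.74 (SE 0.29, edgeR adjusted p = 5.18e-05), BURP domain-containing protein 5-like (LOC110093589) by 4.52 (SE 0.41, edgeR adjusted p = 0.000402) and mannose-specific lectin-like LOC110114174 by 5.28 (SE 0.58, edgeR adjusted p = 0.000926). The lectin had 0.0789 and 0.827 CPM with NAA plus 6-BA, against 17.8 and 15.1 CPM with NAA, and it belongs to a family of close copies of which 3 of 25 tested members fell and 1 rose (0 rose without NAA plus 6-BA replicate 1). In all 10 of these genes NAA replicate 1 was above NAA replicate 2, by a median of 0.73 on the log2 scale, whereas 49.8% of all tested genes had replicate 1 above replicate 2. In the same 10 genes, replicate 1 was above replicate 2 in 6 with NAA plus 6-BA, in 2 with 6-BA and in 1 with water. The part of NAA replicate 1 in the size of the falls was not tested beyond leaving it out.

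Cytochrome P450 genes had 9 of 119 members higher and 17 lower (median -0.02, 21.8% called, against 5.58% of all tested genes). Leaving out single libraries gave 4 without NAA plus 6-BA replicate 2, and 5 without NAA replicate 1 and without NAA plus 6-BA replicate 1 for the higher count and 10 without NAA plus 6-BA replicate 1 for the lower one. The 7-ethoxycoumarin O-deethylase-like gene LOC110095638 had 52.8 and 37.1 CPM with NAA plus 6-BA, against 9.99 and 11.3 CPM with NAA, a rise of 2.08 (SE 0.23, edgeR adjusted p = 0.00107). CYP749A22 (LOC110103284) had 6.99 and 5.15 CPM with NAA plus 6-BA, against 1.64 and 1.46 CPM with NAA, a rise of 1.97 (SE 0.23, edgeR adjusted p = 0.00135). CYP71A9-like LOC110093703 was near the lower end of detection with NAA plus 6-BA, at 0.0394 and 0.0517 CPM with NAA plus 6-BA, against 5.45 and 3.43 CPM with NAA, and fell by 6.55 (SE 0.52, edgeR adjusted p = 0.000198). CYP71D7 (LOC110107745) had 6.55 and 7.07 CPM with NAA plus 6-BA, against 68.6 and 34 CPM with NAA and fell by 2.92 (SE 0.32, edgeR adjusted p = 0.000899). Glycosyltransferases, which attach sugars to such products, had 1 of 103 members higher (0 to 3 with single libraries left out) and 17 lower (median -0.15). The lower count was 8 without NAA plus 6-BA replicate 2, 10 without NAA replicate 1, and 11 without NAA plus 6-BA replicate 1. Scopoletin glucosyltransferase-like LOC110095990 had 35.7 and 30 CPM with NAA plus 6-BA, against 112 and 92.3 CPM with NAA, and fell by 1.63 (SE 0.15, edgeR adjusted p = 0.0004). Its namesake LOC110095970 had 289 and 319 CPM with NAA plus 6-BA, against 711 and 619 CPM with NAA, and fell by 1.13 (SE 0.12, edgeR adjusted p = 0.000788).

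Alkaloid, flavonoid and phenylpropanoid genes showed single large changes rather than a common direction. In the alkaloid list 2 of 33 tested members rose and 3 fell, and with single libraries left out 0 to 2 rose and 1 to 5 fell. A norcoclaurine 6-O-methyltransferase-like gene (LOC110098946), named after a step of benzylisoquinoline alkaloid synthesis, had 1.24 and 1.15 CPM with NAA plus 6-BA, against 26.2 and 22.9 CPM with NAA, and fell by 4.36 (SE 0.19, edgeR adjusted p = 9.38e-06). A gene named S-norcoclaurine synthase 1-like (LOC110101972) was higher, at 9.23 and 7 CPM with NAA plus 6-BA, against 1.07 and 2.59 CPM with NAA, and its rise of 2.16 (SE 0.48, edgeR adjusted p = 0.0305) was lost without NAA replicate 1 (1.66) and without either NAA plus 6-BA library (1.94 and 2.34). The gene LOC110092338 of the same name was lower, at 21.6 and 36.3 CPM with NAA plus 6-BA, against 85.3 and 46 CPM with NAA, and fell by 1.19 (SE 0.29, edgeR adjusted p = 0.0437), a call lost without either 6-BA library (-1.19 and -1.19), without NAA replicate 1 (-0.67), without NAA plus 6-BA replicate 1 (-0.86) and without either water library (-1.19 and -1.18). It overlaps another gene on the same strand. An isoflavone reductase homolog PCBER-like gene (LOC110097258) had 0.237 and 0.276 CPM with NAA plus 6-BA, against 9.67 and 5.96 CPM with NAA, and fell by 4.93 (SE 0.33, edgeR adjusted p = 8.31e-05). Isoflavone 2'-hydroxylase (LOC110110860) fell by 1.91 (SE 0.15, edgeR adjusted p = 0.000215) and isoflavone 3'-hydroxylase (LOC110109219) rose by 0.62 (SE 0.09, edgeR adjusted p = 0.00336). Of 55 tested flavonoid genes 7 rose and 4 fell. Leaving out single libraries gave 1 without NAA plus 6-BA replicate 1, and 4 without NAA plus 6-BA replicate 2 for the higher count. In the phenylpropanoid and lignin list 3 of 97 rose and 8 fell. With single libraries left out these were 4 without NAA plus 6-BA replicate 1 for the lower count and 1 without NAA replicate 1 and without either NAA plus 6-BA library for the higher one. Caffeic acid 3-O-methyltransferase (LOC110101682), of lignin synthesis, had 13.4 and 14.5 CPM with NAA plus 6-BA, against 6.16 and 4.68 CPM with NAA, a rise of 1.36 (SE 0.17, edgeR adjusted p = 0.00152).

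Enzymes that act on stem polysaccharides and glucosides were compared because the study concerns medicinal components, which in Dendrobium include glucomannans. Of 26 tested beta-glucosidases 1 rose and 6 fell (median -0.13). Beta-glucosidase 1-like (LOC110092217) had 209 and 214 CPM with NAA plus 6-BA, against 391 and 339 CPM with NAA. BoGH3B (LOC110107269) had 25.4 and 23.2 CPM with NAA plus 6-BA, against 43.4 and 37 CPM with NAA, and beta-glucosidase 6-like (LOC110098121) had 0.302 and 0.431 CPM with NAA plus 6-BA, against 3.92 and 3.07 CPM with NAA. All 3 fell, and these calls held without any one library. The beta-glucosidase 18 copies did not move together. LOC110095272 fell by 0.56 (SE 0.12, edgeR adjusted p = 0.028), a call lost without NAA replicate 1 (-0.34) and without either NAA plus 6-BA library (-0.51 and -0.61). LOC110095269 rose by 0.80 (SE 0.18, edgeR adjusted p = 0.0371), a call lost without either 6-BA library (0.80 and 0.80), without either NAA library (0.87 and 0.73) and without either NAA plus 6-BA library (0.82 and 0.78). The gene LOC110095269 overlaps LOC110095267 on the same strand, which fell by 0.94 (SE 0.13, edgeR adjusted p = 0.00298), and their values are uncertain. The lower count of the list was within 1.5 times of 6 without each library, while the call of LOC110095269 was lost without 6 of the 8.

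In the mannan and glucomannan list 1 of 35 rose and 3 fell (median -0.05). The mannan endo-1,4-beta-mannosidase 2-like gene LOC110100371, which cuts mannan chains, had 4.38 and 2.46 CPM with NAA plus 6-BA, against 109 and 56.4 CPM with NAA, and its fall held without each library. A probable glucomannan 4-beta-mannosyltransferase (LOC110108629), which lengthens such chains, had 36.9 and 38.1 CPM with NAA plus 6-BA, against 20.1 and 15.9 CPM with NAA, and its rise of 1.06 (SE 0.24, edgeR adjusted p = 0.0319) was lost without either NAA library (1.25 and 0.90), without either NAA plus 6-BA library (1.08 and 1.04) and without either water library (1.06 and 1.07). The synthase named glucomannan 4-beta-mannosyltransferase 1 (LOC110112100) fell by 0.73 (SE 0.14, edgeR adjusted p = 0.0184), a call lost without NAA replicate 1 (-0.67) and without NAA plus 6-BA replicate 1 (-0.56). Without NAA plus 6-BA replicate 1 the list had 0 members higher and 1 lower.

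Wall-loosening enzymes moved in both directions. In the xyloglucan, expansin and endoglucanase list 8 of 68 rose and 11 fell (median -0.03). With single libraries left out these were 3 without NAA plus 6-BA replicate 2, and 4 without NAA plus 6-BA replicate 1 for the higher count and 4 without NAA plus 6-BA replicate 1 for the lower one. Xyloglucan endotransglucosylase/hydrolases cut and rejoin the chains that tether cellulose. LOC110111585 of this family had 1.43 and 2.57 CPM with NAA plus 6-BA, against 13.1 and 11.6 CPM with NAA, and fell by 2.64 (SE 0.28, edgeR adjusted p = 0.000759). The related LOC110116273 had 54.6 and 63.4 CPM with NAA plus 6-BA, against 127 and 97.5 CPM with NAA, and fell by 0.93 (SE 0.13, edgeR adjusted p = 0.00268). Expansin-like A2 (LOC110114636) had 87 and 125 CPM with NAA plus 6-BA, against 230.0 and 222 CPM with NAA, and fell by 1.09 (SE 0.16, edgeR adjusted p = 0.00381). Of 136 pectin genes 4 rose and 10 fell. Leaving out single libraries gave 6 without NAA replicate 1 and without NAA plus 6-BA replicate 1 for the lower count and 7 without NAA replicate 2 for the higher one. Pectinesterase 34-type gene LOC110099087, which trims methyl groups of pectin, had 291 and 359 CPM with NAA plus 6-BA, against 899 and 745 CPM with NAA, and fell by 1.34 (SE 0.12, edgeR adjusted p = 0.000419). Pectate lyase 18 (LOC110105152), which cuts pectin, had 193 and 245 CPM with NAA plus 6-BA, against 114 and 127 CPM with NAA, a rise of 0.86 (SE 0.11, edgeR adjusted p = 0.00213). Polygalacturonase QRT3-like (LOC110098421) was scarce with NAA plus 6-BA, at 0.092 and 0.207 CPM with NAA plus 6-BA, against 4.46 and 2.03 CPM with NAA, and fell by 4.47 (SE 0.53, edgeR adjusted p = 0.00132).

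Called chaperone genes were mostly lower, as were called genes as a whole (707 lower and 376 higher). In the chaperone list 12.6% passed, against 5.58% of all tested genes. Of 159 tested heat shock and chaperone genes 2 rose and 18 fell (median -0.05), and the lower count lay between 12 and 19 when single libraries were left out, with 12 without NAA plus 6-BA replicate 1, and the higher count between 1 and 3. Heat shock cognate 70 kDa protein 2 (LOC110108419) had 330.4 and 308 CPM with NAA plus 6-BA, against 671 and 618 CPM with NAA, and fell by 1.01 (SE 0.11, edgeR adjusted p = 0.000929). Heat shock protein 81-1 (LOC110109550), of the HSP90 family, had 1058 and 1115 CPM with NAA plus 6-BA, against 1689 and 1709 CPM with NAA, and fell by 0.64 (SE 0.09, edgeR adjusted p = 0.00331). The small heat shock gene LOC110097211 (17.4 kDa, class III) fell by 0.98 (SE 0.11, edgeR adjusted p = 0.00111) and dnaJ homolog subfamily B member 13 (LOC110101852) by 0.88 (SE 0.08, edgeR adjusted p = 0.000396). Of the 2 that rose, chaperone protein DnaK-like (LOC110114121) had 3757 and 3276 CPM with NAA plus 6-BA, against 947 and 1032 CPM with NAA, a rise of 1.83 (SE 0.12, edgeR adjusted p = 8.03e-05). Each NAA plus 6-BA library held over 3 times the level of each NAA library for that gene.

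Called genes for metal binding and water channels were mostly lower, as were called genes as a whole (707 lower and 376 higher). The metal list had 18.8% called and the aquaporin and ion transport list 12.3%, against 5.58% of all tested genes. In the metallothionein and metal transport list 2 of 69 rose and 11 fell (median -0.02). Leaving out single libraries gave 5 without NAA plus 6-BA replicate 1, and 7 without NAA replicate 1 and without either water library for the lower count. The higher count was 0 without NAA replicate 1 and without NAA plus 6-BA replicate 2, 1 without NAA plus 6-BA replicate 1, and 4 without NAA replicate 2. Metallothionein-like protein type 2 (LOC110115849), a metal-binding protein, had 2538 and 2526 CPM with NAA plus 6-BA, against 5416 and 4866 CPM with NAA, and fell by 1.02 (SE 0.11, edgeR adjusted p = 0.000788). Ferritin-3 (LOC110101286), which stores iron, had 318 and 414 CPM with NAA plus 6-BA, against 1550.2 and 1337 CPM with NAA, and fell by 1.98 (SE 0.19, edgeR adjusted p = 0.000474). Ferritin-4 (LOC110101280) fell by 0.76 (SE 0.08, edgeR adjusted p = 0.000924). Of 81 aquaporin and ion transport genes 1 rose and 9 fell. With single libraries left out there were 4 without NAA plus 6-BA replicate 1 for the lower count. The tonoplast water channels TIP2-1 (LOC110101105), TIP4-1-like (LOC110114169) and TIP4-3 (LOC110104154) fell by 1.56, 1.53 and 1.44, and TIP2-1 had 30.8 and 44.1 CPM with NAA plus 6-BA, against 111 and 109 CPM with NAA (SE 0.18, edgeR adjusted p = 0.00122). In the nitrogen list 3 of 79 rose and 5 fell. With single libraries left out there were 8 without NAA replicate 2 for the lower count and 1 without NAA replicate 1 and without either NAA plus 6-BA library, and 5 without NAA replicate 2 for the higher one. Nitrate reductase (LOC110097032) had 424 and 444 CPM with NAA plus 6-BA, against 646 and 630.3 CPM with NAA, and fell by 0.56 (SE 0.08, edgeR adjusted p = 0.00482). The nitrate transporter gene NPF7.3 (LOC110116753) had 45.2 and 55.1 CPM with NAA plus 6-BA, against 147 and 118 CPM with NAA, and fell by 1.40 (SE 0.14, edgeR adjusted p = 0.000611). In the phosphate and sulfur list 6 of 63 rose and 2 fell. Leaving out single libraries gave 1 without NAA plus 6-BA replicate 2, and 2 without NAA plus 6-BA replicate 1 for the higher count. Purple acid phosphatase 17 (LOC110105488), which releases phosphate, had 198 and 225 CPM with NAA plus 6-BA, against 137 and 143 CPM with NAA, a rise of 0.59 (SE 0.09, edgeR adjusted p = 0.00354).

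Peroxidases and glutathione transferases had 3 of 86 members higher and 10 lower (median -0.13). With single libraries left out there were 3 without NAA plus 6-BA replicate 1, 4 without NAA replicate 1, and 5 without NAA plus 6-BA replicate 2 for the lower count and 0 without NAA replicate 1 for the higher one. Glutathione S-transferase U17-like (LOC110101897) had 0.736 and 1.62 CPM with NAA plus 6-BA, against 16.4 and 9.03 CPM with NAA, and fell by 3.46 (SE 0.37, edgeR adjusted p = 0.000797). Glutathione transferase GST 23 (LOC110114969) was higher, at 8.91 and 10.5 CPM with NAA plus 6-BA, against 1.23 and 2.09 CPM with NAA, and its rise of 2.56 (SE 0.44, edgeR adjusted p = 0.00887) was lost without NAA replicate 1 (2.23). In the light-harvesting and photosystem list 1 of 53 tested members was higher and 1 lower (3.77% called), both described as early light-induced protein 1. LOC110093694, which overlaps another gene on the same strand, rose by 0.92. That call was lost without either NAA library (0.97 and 0.89), without NAA plus 6-BA replicate 1 (0.62) and without either water library (0.92 and 0.93). The log2 fold change of LOC110093696 was -0.67, a call lost without NAA replicate 2 (-0.52) and without either NAA plus 6-BA library (-0.67 and -0.67). Among clock and light-signalling genes 3 of 52 rose and 0 fell (5.77% called, against 5.58% of all tested genes). The clock regulator APRR9 (LOC110115061) had 25.5 and 22.5 CPM with NAA plus 6-BA, against 9.75 and 10.2 CPM with NAA, a rise of 1.27 (SE 0.17, edgeR adjusted p = 0.00222). Phytochrome A1 (LOC110092146), a far-red light receptor, had 15.8 and 22 CPM with NAA plus 6-BA, against 8.02 and 9.45 CPM with NAA, a rise of 1.11 (SE 0.17, edgeR adjusted p = 0.00462).

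Transcription factor lists were set beside the shares over all tested genes, 1.94% higher and 3.64% lower. The homeobox list had more members higher. The other lists named here had more members lower, as did all tested genes. The NAC and bHLH lists had 8.82% and 8.54% called, against 5.58% of all tested genes. In the homeobox, TCP, KNOX and leaf patterning list 13 of 127 rose and 2 fell (median 0.23), but the higher count was 1 without NAA plus 6-BA replicate 1, 2 without NAA replicate 1, 3 without NAA plus 6-BA replicate 2, and 5 without either 6-BA library. Its lowest p-values among the rises included ROC5-like (LOC110094696, 0.51, SE 0.09, edgeR adjusted p = 0.0107), of an epidermal homeobox class, whose call was lost without NAA replicate 1 (0.44) and without NAA plus 6-BA replicate 1 (0.51). HAT3 (LOC110106422) rose by 0.81 (SE 0.15, edgeR adjusted p = 0.0119), a call lost without NAA replicate 1 (0.74) and without NAA plus 6-BA replicate 2 (0.64). LOB domain-containing protein 38 (LOC110114587), a repressor of nitrate genes in Arabidopsis, fell by 0.54 (SE 0.09, edgeR adjusted p = 0.00842), a call lost without NAA plus 6-BA replicate 1 (-0.48). AP2/ERF factors had 4 of 99 higher and 11 lower (median -0.10). The counts became 4 without NAA plus 6-BA replicate 1, and 7 without NAA replicate 1 and without NAA plus 6-BA replicate 2 for the lower count and 1 without NAA plus 6-BA replicate 1, and 2 without NAA plus 6-BA replicate 2 for the higher one. ERF9-like (LOC110096240) had 2.68 and 2.28 CPM with NAA plus 6-BA, against 17.1 and 15.8 CPM with NAA, and fell by 2.73 (SE 0.16, edgeR adjusted p = 4.02e-05). ERN1-like (LOC110109222), named after a nodulation factor of legumes, had 0.723 and 0.569 CPM with NAA plus 6-BA, against 7.15 and 4.89 CPM with NAA, and fell by 3.21 (SE 0.31, edgeR adjusted p = 0.000484). MYB factors had 3 of 122 higher and 9 lower. The counts became 1 without NAA plus 6-BA replicate 1, 2 without NAA replicate 1, 3 without NAA plus 6-BA replicate 2, and 5 without either water library for the lower count. MYB44 (LOC110096210), which in Arabidopsis acts in stomatal closure, had 88.7 and 122 CPM with NAA plus 6-BA, against 259 and 269.9 CPM with NAA, and fell by 1.33 (SE 0.14, edgeR adjusted p = 0.000663). NAC factors had 2 of 68 higher and 4 lower, and with single libraries left out 1 to 2 higher and 1 to 3 lower. NAC transcription factor 32 (LOC110104101) had 51.3 and 45.9 CPM with NAA plus 6-BA, against 14.3 and 19.6 CPM with NAA, a rise of 1.52 (SE 0.15, edgeR adjusted p = 0.000663). NAC domain-containing protein 2 (LOC110092756) had 7.61 and 7 CPM with NAA plus 6-BA, against 21.7 and 15 CPM with NAA, and fell by 1.33 (SE 0.18, edgeR adjusted p = 0.00232). The WRKY and bHLH lists each had 2 members higher and 5 lower, of 57 and 82 tested, and with single libraries left out the WRKY list had 0 to 1 higher and 1 to 5 lower and the bHLH list 0 to 3 higher and 2 to 4 lower.

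Root markers passed in 2 of 18 tested cases, both lower (11.1% called, against 5.58% of all tested genes). The floral list also had 2 of 18 tested markers called, 1 higher and 1 lower. SHORT-ROOT-like (LOC110095590), a regulator of endodermis formation, had 0.749 and 0.931 CPM with NAA plus 6-BA, against 3.89 and 2.98 CPM with NAA, and fell by 2.04 (SE 0.27, edgeR adjusted p = 0.00218). Casparian strip membrane protein 2-like (LOC110102706) had 0.854 and 0.914 CPM with NAA plus 6-BA, against 2.41 and 4.59 CPM with NAA and fell by 1.98 (SE 0.39, edgeR adjusted p = 0.0187), a call lost without NAA replicate 2 (-1.45) and without either NAA plus 6-BA library (-1.93 and -2.03). The whole root list did not show the same fall. Its summed level was 1095 and 1129 CPM with NAA plus 6-BA, against 1099 and 1079 CPM with NAA, and the groups overlapped. Both NAA plus 6-BA libraries lay above both NAA libraries in 3 tested root markers and below them in 5. The part of root tissue in other changes was not tested. In lists tied to growth, 3 of 158 cell cycle genes rose and 3 fell. Of 52 histone genes 1 rose and 2 fell (5.77% called, against 5.58% of all tested genes). Of 192 cytosolic ribosomal protein genes 1 fell (median -0.16, and -0.21 with 6-BA alone). In 82 of the 192 both NAA plus 6-BA libraries lay below both NAA libraries, and in 3 they lay above. Over all tested genes these shares were 23.7% below and 23.2% above. Histone H1 (LOC110112483) had 284 and 314 CPM with NAA plus 6-BA, against 187 and 207 CPM with NAA, a rise of 0.60 (SE 0.10, edgeR adjusted p = 0.00706). With single libraries left out, the cell cycle list had 0 to 2 members on each side, the histone list 1 to 3 higher and 1 to 2 lower, and the ribosomal list 0 to 3 lower. Of 68 sucrose and starch genes 1 fell, and of 279 chitinase, pathogenesis-related and disease resistance genes 1 rose and 5 fell (0 to 5 and 2 to 8 with single libraries left out).

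**Figure D3:**
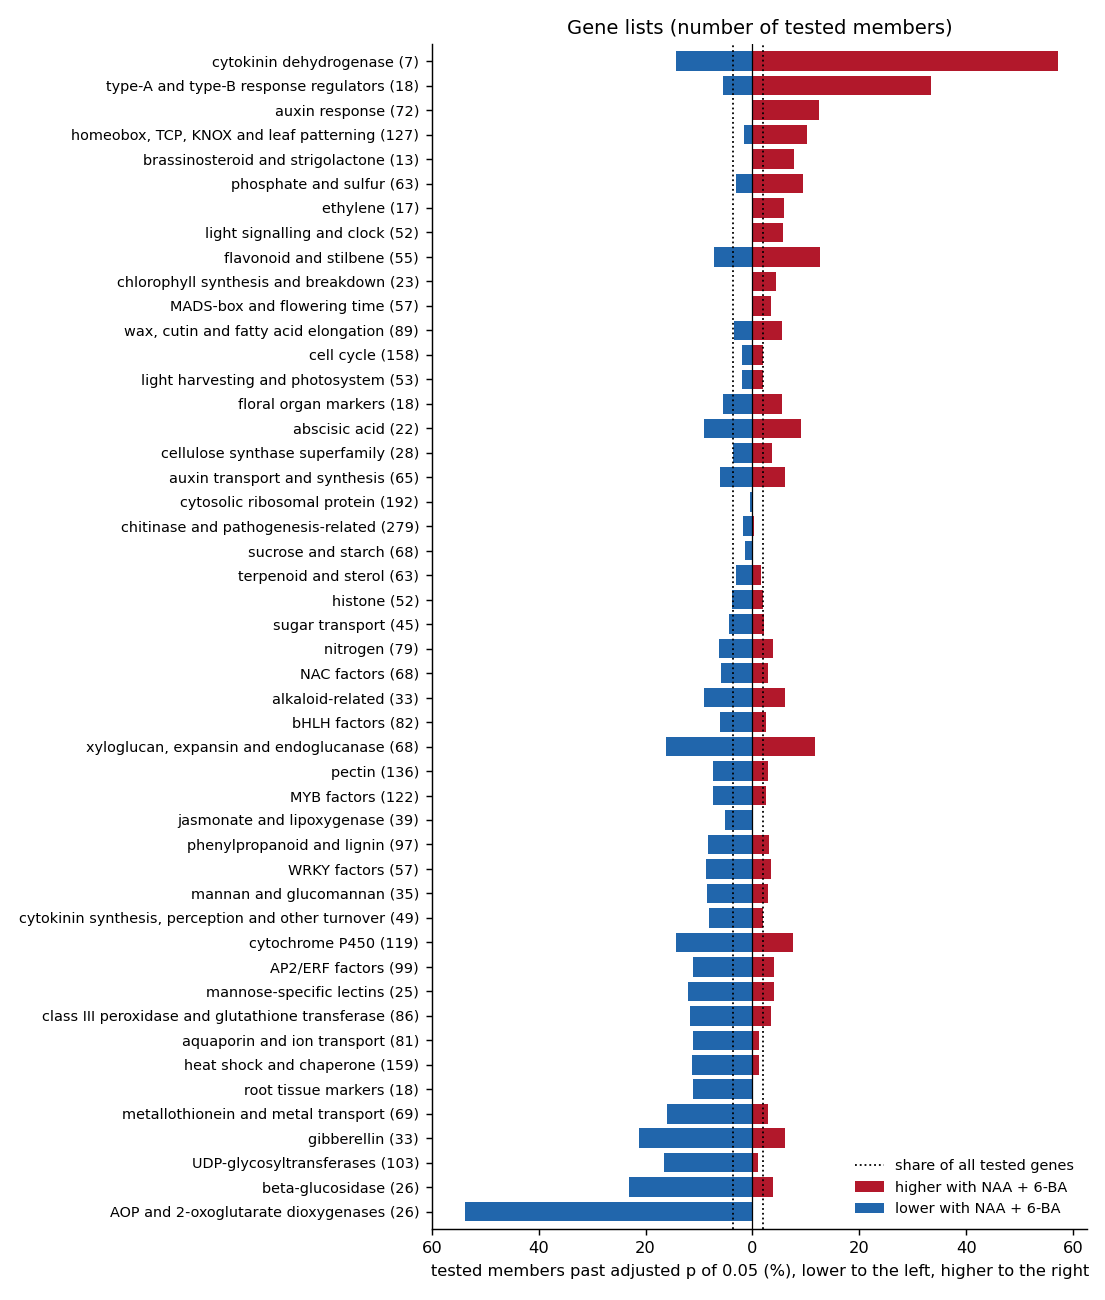
For each gene list with a called member, the share of tested members past an adjusted p of 0.05 (horizontal axis, %), lower with NAA plus 6-BA to the left and higher to the right, with the number of tested members in brackets. Dotted lines mark the shares over all tested genes, 3.64% lower and 1.94% higher; the AOP and dioxygenase list reaches furthest left and the cytokinin dehydrogenases furthest right.

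The effect of 6-BA in NAA-treated plants was set beside that of 6-BA alone against water, which shares no library with it. With 6-BA alone 1420 genes (7.31%) passed, 604 higher (3.11%) and 816 lower (4.2%). Of the 376 genes higher with NAA plus 6-BA against NAA, 47.6% were also called higher with 6-BA alone, and of the 707 lower genes 53.7% were also called lower. Another 514 genes passed on top of NAA and not with 6-BA alone, and for 47 of these the difference between both effects was itself past the threshold. That difference, tested as an interaction in the same fit, passed for 101 genes (0.52%), 30 positive and 71 negative, and 63 of the 101 were also called for 6-BA on top of NAA. This count depended on single libraries: it was 0 without either water library, 4 without 6-BA replicate 1, 28 without 6-BA replicate 2, 5 without NAA plus 6-BA replicate 1, 7 without NAA replicate 1 and 204 without NAA replicate 2. Opposite calls in the 2 comparisons were found for 10 genes.

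**Figure D4:**
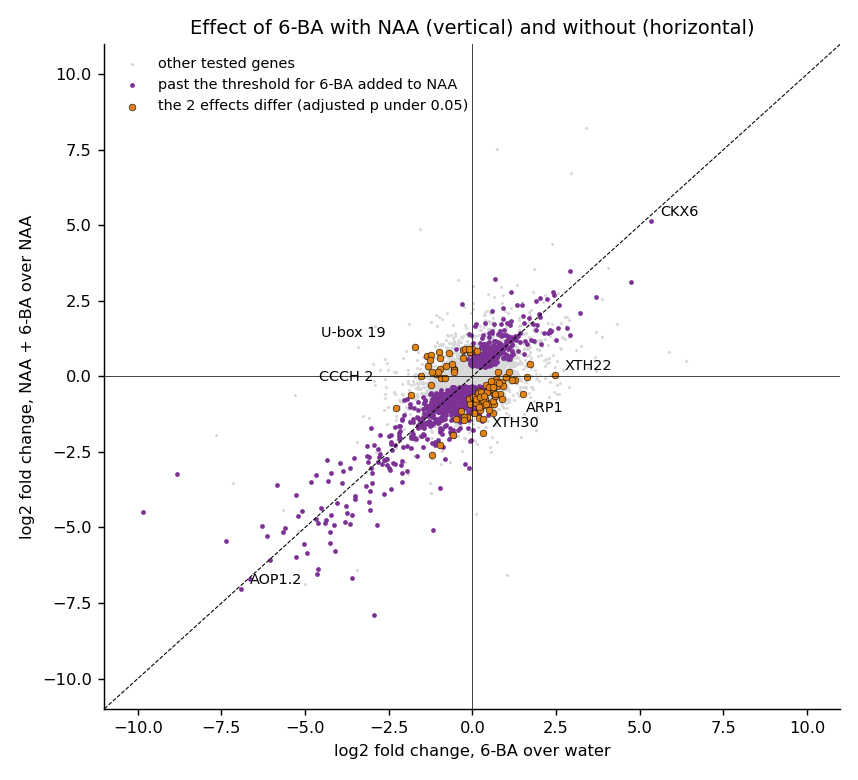
Log2 fold change of NAA plus 6-BA over NAA (vertical axis) against that of 6-BA over water (horizontal axis) for each tested gene, with the line of equal effects dashed. Purple points are genes past the threshold on top of NAA, and orange points the 101 genes whose effects differed; CKX6 and AOP1.2 lie near the dashed line, at 5.13 and 5.33 and at -7.05 and -6.92.

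No gene of the cytokinin dehydrogenase, response regulator or beta-glucosidase lists was among the 101. In the AOP and dioxygenase list, where 14 of 26 members fell on top of NAA, 12 fell and 1 rose with 6-BA alone, and 0 differed. Of 89 wax, cutin and fatty acid elongation genes, which build the leaf surface layer, 5 differed. On top of NAA 5 of these genes rose and 3 fell, while with 6-BA alone 18 rose and 2 fell. The 5 on top of NAA became 2 without NAA plus 6-BA replicate 1, 3 without NAA replicate 1 and without NAA plus 6-BA replicate 2, and 9 without NAA replicate 2. The GDSL esterase/lipase LOC110115925 had 71.4 and 71.2 CPM with NAA plus 6-BA, 82.1 and 83.2 CPM with NAA, 71.8 and 69 CPM with 6-BA and 41.8 and 39.3 CPM with water. It did not pass on top of NAA (-0.21, SE 0.08, edgeR adjusted p = 0.149) and rose with 6-BA alone (0.80, SE 0.08, edgeR adjusted p = 0.000456), a difference of -1.01 (SE 0.11, edgeR adjusted p = 0.016). The water libraries were the low ones for that gene.

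A pair of xyloglucan endotransglucosylase/hydrolases showed 2 shapes of such a difference. Gene 30 (LOC110115141) had 4.42 and 5.21 CPM with NAA plus 6-BA, 18.3 and 16.7 CPM with NAA, 5.07 and 5 CPM with 6-BA and 3.5 and 4.64 CPM with water. Only the NAA libraries were high, and the effects differed by -2.17 (SE 0.25, edgeR adjusted p = 0.016), and the gene fell by 1.86 on top of NAA (SE 0.17, edgeR adjusted p = 0.000442). Gene 22 (LOC110098232) had 36.3 and 51.5 CPM with NAA plus 6-BA, 44.7 and 40.6 CPM with NAA, 42.2 and 33.1 CPM with 6-BA and 6.72 and 6.81 CPM with water. Here the water libraries were low and the other 6 alike, with a log2 fold change on top of NAA of 0.04 (SE 0.16, edgeR adjusted p = 0.93) and a difference of -2.44 (SE 0.24, edgeR adjusted p = 0.016).

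The NAA libraries stood highest and furthest from the other groups in 44 of the 101 genes, and lowest in 8. The water libraries stood apart as the lowest in 25 and as the highest in 15. The CYP707A2-like gene LOC110113154, described above as fallen, had 288 and 242 CPM with 6-BA and 214 and 244 CPM with water, and its effects differed by -1.33 (SE 0.18, edgeR adjusted p = 0.0219). MYB44 (LOC110096210) had 103 and 99.4 CPM with 6-BA and 107 and 121 CPM with water, a difference of -1.15 (SE 0.19, edgeR adjusted p = 0.0405). Nudix hydrolase 13 (LOC110111845), chosen after its values were seen, had 8.64 and 10 CPM with NAA plus 6-BA, 62.3 and 51.9 CPM with NAA, 4.89 and 5.64 CPM with 6-BA and 11.5 and 12.6 CPM with water. It fell by 2.62 on top of NAA (SE 0.14, edgeR adjusted p = 2.96e-05) and by 1.19 with 6-BA alone (SE 0.14, edgeR adjusted p = 0.00118), a difference of -1.42 (SE 0.19, edgeR adjusted p = 0.0221).

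The reverse shape was seen in genes with high levels in water. U-box domain-containing protein 19-like (LOC110108815), of a class of ubiquitin ligases, had 5.34 and 4.4 CPM with NAA plus 6-BA, 2.68 and 2.32 CPM with NAA, 3.76 and 4.21 CPM with 6-BA and 11.4 and 14.8 CPM with water. It rose by 0.96 on top of NAA (SE 0.20, edgeR adjusted p = 0.0258), a call lost without either NAA library (1.08 and 0.86) and without NAA plus 6-BA replicate 1 (0.81), and fell by 1.72 with 6-BA alone (SE 0.19, edgeR adjusted p = 0.000934). Zinc finger CCCH domain-containing protein 2 (LOC110107925) had 46.2 and 43.7 CPM with NAA plus 6-BA, 22.5 and 33.3 CPM with NAA, 37.4 and 42.6 CPM with 6-BA and 98.9 and 88.4 CPM with water. Its rise of 0.69 on top of NAA (SE 0.16, edgeR adjusted p = 0.0351) was lost without NAA replicate 1 (0.44), without either NAA plus 6-BA library (0.65 and 0.73) and without water replicate 2 (0.70), and with 6-BA alone it fell by 1.23 (SE 0.16, edgeR adjusted p = 0.00173). RNA-binding protein ARP1 (LOC110094237) was the opposite case, at 90 and 103 CPM with NAA plus 6-BA, 160.0 and 131 CPM with NAA, 101 and 91.1 CPM with 6-BA and 54.3 and 53.7 CPM with water. It fell by 0.60 on top of NAA (SE 0.11, edgeR adjusted p = 0.0138), a call lost without NAA replicate 1 (-0.43) and without NAA plus 6-BA replicate 1 (-0.50), and rose by 0.83 with 6-BA alone (SE 0.11, edgeR adjusted p = 0.00245).

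**Figure D5:**
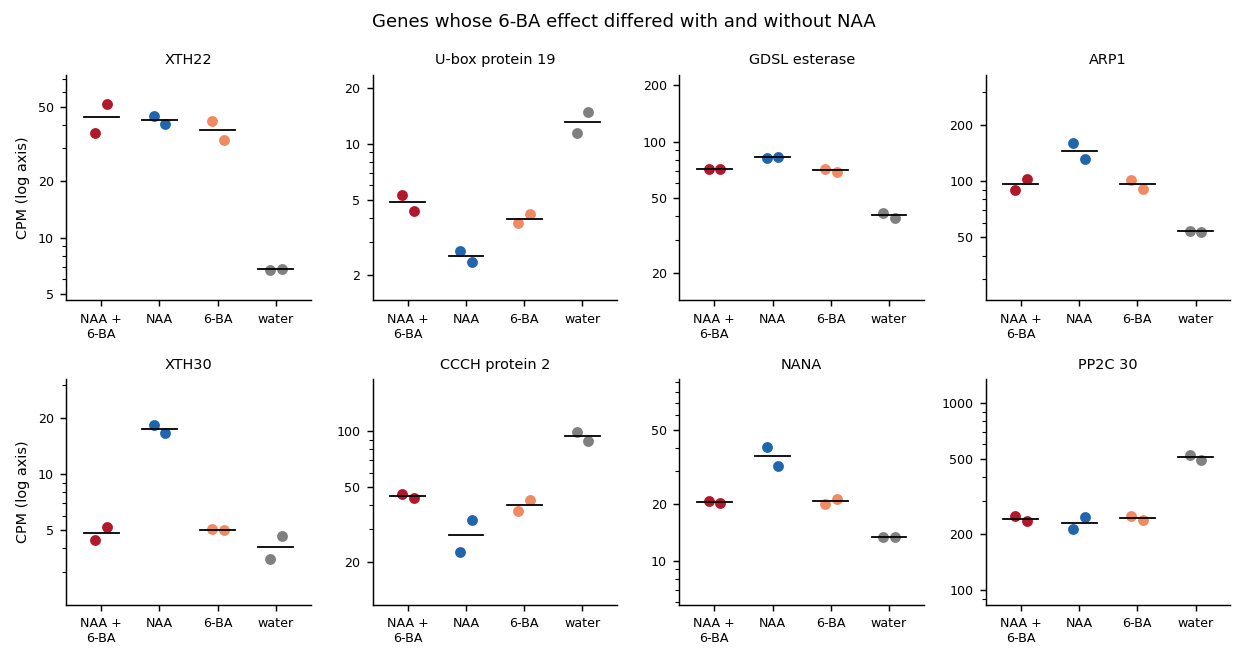
Levels (CPM, log axis) of the 8 named genes with the lowest p-values of the interaction test, in the 8 libraries of the first experiment; points are libraries and bars the means of 2. NAA libraries are highest for XTH30 (xyloglucan endotransglucosylase/hydrolase 30), and water libraries lowest for XTH22 and highest for U-box protein 19, CCCH protein 2 and PP2C 30 (protein phosphatase 2C 30).

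The end levels with NAA plus 6-BA were also set against those with 6-BA alone, a comparison added after the data were seen, which shares the NAA plus 6-BA libraries with the one above. No gene passed (0.0%) in edgeR's quasi-likelihood test, with 1073 genes at an unadjusted p under 0.05. DESeq2 called 39 genes and limma on log2(FPKM + 1) called 0, and edgeR called 11 without 6-BA replicate 1 and 1 without either NAA plus 6-BA library. Of the 376 genes called higher over NAA, 96.8% had mean levels within 0.5 on the log2 scale of those with 6-BA alone, as did 88.5% of the 707 called lower and 95.0% of all tested genes. Cytokinin dehydrogenase 6 (LOC110105324) had 16.4 and 19.7 CPM with NAA plus 6-BA and 22.6 and 19.4 CPM with 6-BA alone, and cytokinin dehydrogenase 11 (LOC110094204) had 183 and 219 CPM with NAA plus 6-BA and 194 and 221 CPM with 6-BA alone.

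Levels of some of the leading genes in the older plants of the second experiment came from libraries that the comparison did not use, with 1 library for each dose and time and no test. They are given in order of dose (none, then 6-BA at 0.5, at 1.0 and at 2.0 mg/L), in CPM scaled to the library totals. Cytokinin dehydrogenase 6 (LOC110105324) had 0.192, 2.35, 1.62 and 0.936 CPM after 2 weeks and 0.328, 0.8, 11.3 and 4.04 CPM after 4 weeks, with the lowest value at 0 mg/L at both times. Cytokinin dehydrogenase 4-like (LOC110102256) had 10.3, 13.7, 9.38 and 7.74 CPM after 2 weeks and 9.38, 7.75, 30.1 and 14.5 CPM after 4 weeks, where 0 mg/L was not the lowest. Cytokinin dehydrogenase 11 (LOC110094204) had 826, 315, 590.3 and 749 CPM after 2 weeks and 324, 632, 997 and 329.5 CPM after 4 weeks, so 0 mg/L was the highest at 2 weeks and the lowest at 4 weeks. The mannosidase LOC110100371 had 17.5, 7.48, 1.1 and 1.06 CPM after 2 weeks, highest without 6-BA, and 0.394, 0.431, 2.25 and 1.22 CPM after 4 weeks, lowest without it. DAO-like LOC110105848 had 12.2, 6.61, 1.75 and 2.37 CPM after 2 weeks and 1.84, 3.81, 5.9 and 1.28 CPM after 4 weeks. DnaK-like (LOC110114121) had 1222, 2526, 3212 and 6668 CPM after 2 weeks, and 1244, 483, 1330.2 and 919.5 CPM after 4 weeks. BURP domain-containing protein 5-like (LOC110093589), one of the deepest falls, had 24.6, 4.26, 4.98 and 6.49 CPM after 2 weeks and 41.1, 7.57, 9.28 and 8.98 CPM after 4 weeks, with the highest value at 0 mg/L at both times. Over the 10 largest rises named by rule, all 3 doses lay above 0 mg/L in 5 genes after 2 weeks, in 2 after 4 weeks and in 1 at both times. All 3 doses lay below 0 mg/L in 2 of these genes after 2 weeks and in 2 after 4 weeks. Over the 10 largest falls, all 3 doses lay below 0 mg/L in 6 genes after 2 weeks, in 3 after 4 weeks and in 2 at both times. All 3 doses lay above 0 mg/L in 0 of these genes after 2 weeks and in 1 after 4 weeks. The share of all genes with such an order was not computed, so these counts cannot be told apart from a background share.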

How the data were processed

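The series holds 16 libraries of poly(A) RNA, of which 4 were compared and 8 entered the fit. The deposited count tables hold raw counts per gene and library, and the authors' FPKM tables, per the file headers, hold the same genes and libraries. Per the submitters' processing notes, the tools were edgeR, with no version, Cufflinks 2.2.2 and HISAT2 2.0.6. The genome build, annotation release and strandedness were not given in the sources used here. In the first table there were 23063 features, and 22699 of them were described by gene number in the second table, which held 28537.

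Counts were analysed with R 4.3.3, using edgeR 4.0.16, DESeq2 1.42.0 and limma 3.58.1. Tables and plots were made with Python 3.11.15, pandas 2.3.3, NumPy 2.4.6 and Matplotlib 3.10.9. Low genes were removed with filterByExpr (minimum count 10), libraries were scaled by TMM, and a model of 4 group means was tested with edgeR's quasi-likelihood test and Benjamini-Hochberg adjustment at 0.05 over 19420 genes. The biological coefficient of variation was 0.115, and the procedure was tested on simulated data. CPM of the first experiment use library sizes after TMM, and those of the second use library totals, and standard errors are model-based. FPKM served only for limma on log2(FPKM + 1) and log2(FPKM + 0.1), a scale that understates the change of low genes. The chi-square per degree of freedom between the libraries of a group was 16.8 to 28.6, above counting noise.

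The comparison and its 48 gene lists, drawn from words in the gene descriptions, were chosen with earlier results of these data known, and words that matched wrong genes were removed from 8 lists after the matches were read. Genes were named by rule: the 10 genes that rose most and the 10 that fell most among those past the threshold (absolute log2 fold change and mean log2 CPM of at least 1, groups not overlapping, with a description), the 5 called members of lowest p in each list, every called member of the cytokinin, beta-glucosidase and mannan lists, the 5 called genes of highest CPM, and the 8 of lowest p in the interaction test with an absolute difference of at least 1. The contrast with 6-BA alone was added after the data were seen. Alternatives were RLE scaling, library totals only, no filter, DESeq2, limma, counts thinned to the smallest library, a replicate block, a fit on the 4 compared libraries, and each library left out.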

Additional observations from a re-analysis of the deposited data

Results flagged for a closer look

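For 18 named genes the effect of 6-BA differed between plants with and without NAA, by a test of the difference itself in edgeR with Benjamini-Hochberg adjustment. Differences are the log2 effect on top of NAA minus the log2 effect of 6-BA alone. None of these tests passed when either water library was left out, and leaving out NAA plus 6-BA replicate 1 or 6-BA replicate 1 kept 1 of the 18, so each rests on a few libraries.

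Of the genes described above, the difference was -2.44 for xyloglucan endotransglucosylase/hydrolase 22, -2.17 for xyloglucan endotransglucosylase/hydrolase 30, -1.43 for ARP1, 1.92 for CCCH domain protein 2, 2.67 for U-box protein 19-like, -1.42 for nudix hydrolase 13, -1.33 for the CYP707A2-like gene, -1.15 for MYB44, -1.09 for the pectinesterase LOC110099087 and -1.01 for the GDSL esterase/lipase LOC110115925.

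A further group of genes was highest in the NAA libraries. Cellulose synthase-like protein D2 (LOC110097221), of a family that makes wall polysaccharides at growing tips, had 85.8 and 83.5 CPM with NAA plus 6-BA, 169 and 139.7 CPM with NAA, 91.7 and 77.8 CPM with 6-BA and 78 and 78.5 CPM with water, a difference of -0.98 (SE 0.15, edgeR adjusted p = 0.0334). Galacturonosyltransferase-like 3 (LOC110109035), of pectin synthesis, had 65.5 and 78.6 CPM with NAA plus 6-BA, 127 and 121 CPM with NAA, 67.9 and 62.2 CPM with 6-BA and 53.5 and 51.1 CPM with water, a difference of -1.09 (SE 0.14, edgeR adjusted p = 0.0219). The 7-deoxyloganetin glucosyltransferase-like gene LOC110102140 had 7.79 and 8.74 CPM with NAA plus 6-BA, 45.6 and 34.6 CPM with NAA, 9.19 and 8.26 CPM with 6-BA and 16.9 and 17.2 CPM with water, a difference of -1.31 (SE 0.21, edgeR adjusted p = 0.0334). In all 3 genes both NAA libraries were above the other 6. The aspartic proteinase NANA (LOC110110957) had 20.8 and 20.3 CPM with NAA plus 6-BA, 40.5 and 32.2 CPM with NAA, 20.2 and 21.3 CPM with 6-BA and 13.4 and 13.4 CPM with water, a difference of -1.45 (SE 0.17, edgeR adjusted p = 0.016). Peroxidase P7 (LOC110096932) had 24.3 and 25.2 CPM with NAA plus 6-BA, 51.9 and 41.8 CPM with NAA, 40.9 and 34.2 CPM with 6-BA and 23 and 31.1 CPM with water, a difference of -1.39 (SE 0.22, edgeR adjusted p = 0.0354), and its fall on top of NAA was lost without NAA replicate 1 (-0.75) and without either NAA plus 6-BA library (-0.89 and -0.95). The 16.9 kDa class I heat shock protein (LOC110105957) had 188 and 197 CPM with NAA plus 6-BA, 335 and 396 CPM with NAA, 262 and 284 CPM with 6-BA and 269.6 and 306 CPM with water, a difference of -0.85 (SE 0.15, edgeR adjusted p = 0.048).

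The remaining positive differences were 0.90 for polygalacturonase At1g48100 (LOC110105067) and 1.15 for protein phosphatase 2C 30 (LOC110099265). The polygalacturonase had 138 and 133 CPM with NAA plus 6-BA, 65.7 and 80.5 CPM with NAA, 146 and 132 CPM with 6-BA and 131 and 149 CPM with water, so its NAA libraries were the low ones, and it overlaps a gene on the opposite strand. The phosphatase had 248 and 235 CPM with NAA plus 6-BA, 212 and 247 CPM with NAA, 249 and 236 CPM with 6-BA and 527 and 497 CPM with water, so its water libraries were the high ones.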

How the results depend on the processing

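The count of 1083 genes was 1095 with RLE scaling, 1151 with library totals only, 1206 without the filter, 952 and 947 with limma on log2(FPKM + 0.1) and log2(FPKM + 1), 1072 with counts thinned to the smallest library and 744 in a fit on the 4 compared libraries. DESeq2 called 1713, of which 671 higher, and the fit on 4 libraries called 224 higher. Leaving out 1 library gave 387 to 1174 genes, 110 to 447 higher and 277 to 727 lower. No named gene changed sign. Of 230 named genes past the threshold, 230 kept the call with RLE scaling, 229 with DESeq2, 223 with library totals only, 208 with limma on log2(FPKM + 1), 195 in the fit on 4 libraries and 145 without NAA plus 6-BA replicate 1. The 101 differences between the effects with and without NAA became 378 (135 positive, 243 negative) with DESeq2, 154 (110 negative) without the filter, 47 (16 positive, 31 negative) with limma on log2(FPKM + 0.1) and 43 (16 positive, 27 negative) on log2(FPKM + 1). With 1 library left out they numbered 0 to 204, 0 to 81 positive and 0 to 123 negative. Against 6-BA alone, DESeq2 called 39 genes and leaving out 1 library gave 0 to 11. Deviations of same-numbered replicates correlated between -0.320 and 0.322 over the pairs of groups, with 0.322 for NAA plus 6-BA and NAA. Whether the replicate numbers pair the samples cannot be told from these values, and the main fit did not use the numbers. With a replicate block, 835 genes passed for 6-BA on top of NAA and 37 differences passed (15 positive, 22 negative), and the block called 0 against 6-BA alone. The causes of these shifts were not tested. Genes under about 1 CPM rest on few counts, and with 2 libraries a group small changes can be missed.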

Other observations

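The GRAS genes, a plant family of growth and signalling regulators chosen here after its values were seen, were counted by the protein domain that the deposited descriptions give. Of 47 tested members 0 rose and 10 fell, and 3 of the 10 also belong to lists counted above. The lower count was 6 without NAA replicate 1 and without NAA plus 6-BA replicate 2, and 5 without NAA plus 6-BA replicate 1. Nodulation-signaling pathway 2 protein (LOC110098487), named after a legume regulator of root symbiosis, had 9.65 and 11.3 CPM with NAA plus 6-BA, against 45.1 and 32.9 CPM with NAA, and fell by 1.90 (SE 0.18, edgeR adjusted p = 0.000436). Scarecrow-like protein 32 (LOC110097450) had 3.59 and 4.05 CPM with NAA plus 6-BA, against 9.99 and 10.3 CPM with NAA, and fell by 1.41 (SE 0.18, edgeR adjusted p = 0.00191), and scarecrow-like protein 3 (LOC110105054) had 25.5 and 28.3 CPM with NAA plus 6-BA, against 45.4 and 44.8 CPM with NAA, and fell by 0.74 (SE 0.09, edgeR adjusted p = 0.00112). The DELLA protein GAI1 (LOC110101942), a gibberellin repressor of the same family, had 16.4 and 19.2 CPM with NAA plus 6-BA, against 30.1 and 24.2 CPM with NAA, and fell by 0.61 (SE 0.14, edgeR adjusted p = 0.0324), a call lost without NAA replicate 1 (-0.44) and without either NAA plus 6-BA library (-0.50 and -0.73). The shares over all tested genes were 1.94% higher and 3.64% lower.

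Copper proteins and transporters gave further single genes, also chosen after their values were seen. Uclacyanin-3 (LOC110093835) had 0.841 and 1.34 CPM with NAA plus 6-BA, against 7.28 and 6.74 CPM with NAA, and fell by 2.69 (SE 0.32, edgeR adjusted p = 0.00146), while basic blue protein (LOC110101030), of the same copper-binding class, had 4.52 and 5.27 CPM with NAA plus 6-BA, against 1.78 and 2.03 CPM with NAA, a rise of 1.36 (SE 0.22, edgeR adjusted p = 0.00652). ABC transporter G family member 44 (LOC110104216) had 8.52 and 8.72 CPM with NAA plus 6-BA, against 90.2 and 50.5 CPM with NAA, and fell by 3.03 (SE 0.27, edgeR adjusted p = 0.000387). PHR1-LIKE 1 (LOC110115812), of a family that switches on phosphate starvation genes, had 6.68 and 5.53 CPM with NAA plus 6-BA, against 15.6 and 17.7 CPM with NAA, and fell by 1.44 (SE 0.15, edgeR adjusted p = 0.00073). A 36.4 kDa proline-rich protein gene (LOC110092853) had 79 and 94.1 CPM with NAA plus 6-BA, against 35.6 and 27.6 CPM with NAA, a rise of 1.45 (SE 0.13, edgeR adjusted p = 0.000396).

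In the 707 genes lower with NAA plus 6-BA, NAA replicate 1 was above NAA replicate 2 in 70.6%, against 49.8% of all tested genes. Other groups were also uneven for these genes. Replicate 1 was above in 33.4% with NAA plus 6-BA (45.5% of all tested genes) and in 30.4% with water (48.9%). With 6-BA it was above in 54.7% (50.7%). In the 376 higher genes replicate 1 was above in 32.7% with NAA, 46.3% with NAA plus 6-BA, 42% with 6-BA and 63.8% with water. Of the 1083 called genes, 154 had no description.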
